A study of Mus musculus with 6 samples.

Results

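Aminoacyl-tRNA synthetase genes were followed in progenitor cells of mouse bone marrow taken from mice with and without ruxolitinib (RUX), an inhibitor of the kinases JAK1 and JAK2. The genes were chosen by symbol: a single capital letter for the amino acid followed by "ars", with or without a closing 2, together with Farsa, Farsb and Eprs. This gave 37 of the 24421 genes in the table, of which 20 were read as cytosolic and the 17 whose symbols end in 2 as mitochondrial. All 37 passed the filter on low counts. The untreated group (pools 1 to 3) and the RUX group (pools 4 to 6) each held 3 pools of sorted Lin-CD117+ cells, which lack lineage antigens and carry the KIT receptor, and every pool combined cells of 2 to 3 mice. All mice were CByB6F1 females of 2 to 5 months described as normal. The sources used here give neither the dose nor the length of treatment. Symbols for threonyl-tRNA synthetase-like genes and editing proteins fall outside the rule and are given with the rest of the pathway.

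An aminoacyl-tRNA synthetase joins an amino acid to its transfer RNA, so that the ribosome can add that amino acid where the codon calls for it. Mitochondria translate their own messages with a separate set of nuclear-encoded synthetases, except that Gars (glycine) and Kars (lysine) each supply both compartments from a single gene. Eprs carries the activities for glutamate and proline on a single protein, and Farsa and Farsb are the subunits of the cytosolic phenylalanine enzyme. Mitochondria have no glutamine synthetase of their own: Ears2 charges the glutamine tRNA with glutamate, which an amidotransferase then converts. Several cytosolic synthetases are known targets of ATF4, the transcription factor of the amino acid stress response, and Wars is known to be induced by interferon-gamma through JAK and STAT proteins. Blood-forming stem cells are known to keep protein synthesis low, which makes this family of interest in the sorted fraction.

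Libraries held 27354768 to 48747137 counted read pairs, and the untreated pools were the shallower ones. The least counted member, Wars2, had 298 to 583 read pairs per pool. Kit stood at 191 to 476 CPM (read counts relative to library size) of the whole library. It was lowest in untreated pool 3 and RUX pool 4, at 191 and 277 CPM, against 419 to 476 CPM in the other 4 pools. Among the lineage antigens the T cell genes Cd3e and Cd8a were at 0 to 0.543 CPM and the myeloid antigen gene Itgam at 11.3 to 16.7 CPM. Untreated pool 3 and RUX pool 4 also stood apart by their eosinophil markers, whose summed level was 249.5 and 242 CPM against 50.5 to 104 CPM in the other 4 pools. Prg2 made up most of that level in untreated pool 3 and RUX pool 4, at 214 and 207 CPM. Prg3, Epx, Ear1, Ear6 and Il5ra were also highest in these pools, whereas Ear2 and Siglecf did not set them apart. Results that rest on untreated pool 3 and RUX pool 4 are given with and without them.

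Cytosolic synthetase genes were more strongly expressed than mitochondrial ones when read per length. The median level was 60.1 CPM per kb of exons over the 20 cytosolic genes and 15.4 CPM per kb over the 16 mitochondrial genes other than Lars2, against 7.55 CPM per kb over the 13411 tested genes. Levels in CPM per kb are CPM divided by the summed exon length in the deposited table, which can exceed the length of the transcript in use. Dars, the aspartate enzyme, was the highest cytosolic gene with a mean of 188 CPM per kb. Nars (asparagine) and Kars followed with 126 and 114 CPM per kb. At the low end stood Qars (glutamine), Aars (alanine) and Cars (cysteine), with 33.1, 30.8 and 17.7 CPM per kb. Gars, which supplies both compartments as Kars does, was at 105 CPM per kb. Of the 19 neighbouring pairs in the cytosolic order, 6 kept the same order in every pool, among them Dars above Nars and Aars above Cars, while 13 changed order between pools. Nars lay above Kars in each pool except untreated pool 3.

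Among mitochondrial genes other than Lars2, Rars2 (arginine) and Yars2 (tyrosine) were highest with 43.7 and 41.2 CPM per kb, and their order changed between pools. Iars2 (isoleucine) followed with 30.1 CPM per kb, below Yars2 in each of the 6 pools. The lowest were Pars2 (proline), Ears2 (glutamate) and Wars2 (tryptophan), with 5.51, 3.11 and 2.53 CPM per kb, in that order in each pool. Neighbours kept their order in every pool for 7 of 15 pairs. Lars2, the mitochondrial leucine enzyme gene, stood far outside this range at 7712 CPM per kb and is described apart.

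**Figure D1:**
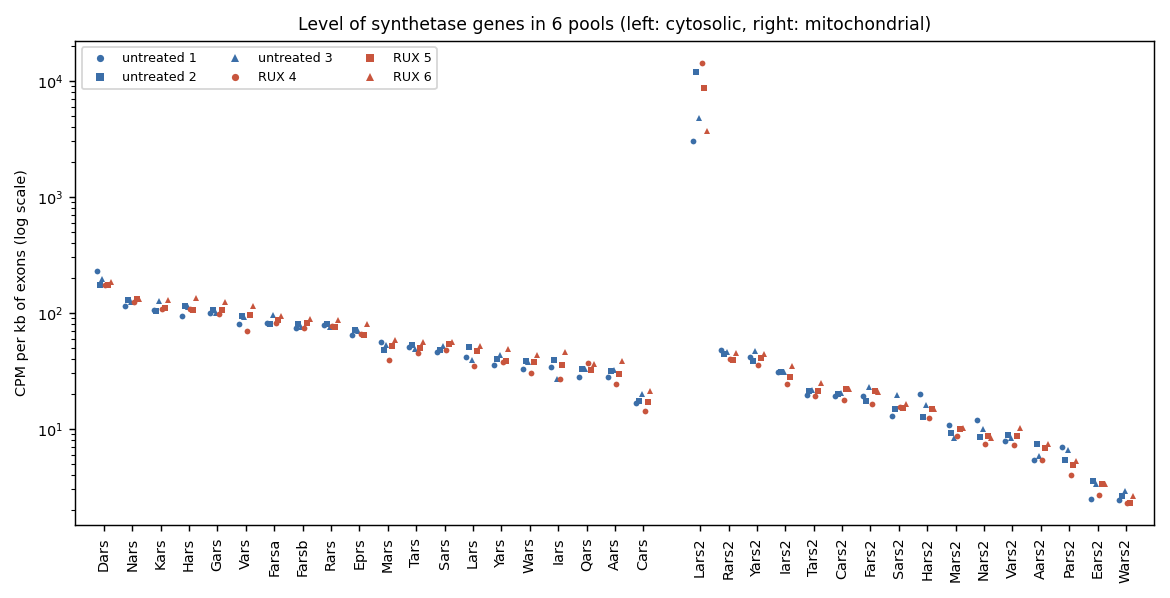
Level of 36 synthetase genes in CPM per kb of exons (logarithmic vertical axis), with 1 point per pool, blue for untreated and red for RUX. Lars2 lies between 3017 and 14325 CPM per kb, while the other mitochondrial genes have means from 2.53 to 43.7 CPM per kb.

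For 14 amino acids the rule takes a cytosolic and a mitochondrial gene. Leaving leucine aside, the mitochondrial gene was below its cytosolic partner in every pool for 10 of 13 amino acids. The widest gaps were at tryptophan, asparagine and valine, where Wars2, Nars2 and Vars2 reached 6.88%, 7.27% and 9.32% of the level per kb of Wars, Nars and Vars. The partners were close for cysteine, where Cars2 stood at 114% of Cars, for tyrosine, where Yars2 stood at 102% of Yars, and for isoleucine, where Iars2 stood at 86.4% of Iars. Cars2 lay above Cars in all 6 pools, whereas the order of Yars2 and Yars and of Iars2 and Iars changed between pools.

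Promoter sequence was read for sites of the factors named above. RefSeq windows (GRCm38.p6, the mm10 assembly) from 250 bases before to 50 bases after the start of transcription were found for 27 members, 13 cytosolic and 14 mitochondrial. The ATF4 response element, searched as TGATGNAA on either strand, occurred in 5 of 13 cytosolic genes (38.5%) and in 0 of 14 mitochondrial genes, against 4.51% of all 27025 genes with a window and 2.88% of the tested ones. The 5 genes were Aars, Gars, Iars, Tars and Yars. Their stretches are shown because ATF4 is a known inducer of cytosolic synthetase genes, with the match in capitals and up to 30 bases on each side, ending at the start of transcription or at the end of the match.

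Aars: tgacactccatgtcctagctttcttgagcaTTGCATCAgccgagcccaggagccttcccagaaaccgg
Gars: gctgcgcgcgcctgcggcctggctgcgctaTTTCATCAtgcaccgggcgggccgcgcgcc
Iars: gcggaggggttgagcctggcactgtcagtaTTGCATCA
Tars: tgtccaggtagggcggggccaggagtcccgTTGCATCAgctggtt
Yars: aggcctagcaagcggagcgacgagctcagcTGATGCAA

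These lie at chr8:111033700-111033767 (plus strand), chr6:55037941-55038000 (plus strand), chr13:49682107-49682144 (plus strand), chr15:11399659-11399703 (minus strand) and chr4:129189876-129189913 (plus strand). The match begins 112, 30 and 15 bases before the RefSeq start in Aars, Gars and Tars, and 7 and 3 bases after it in Iars and Yars. Aars, Iars and Tars carry the same letters, TTGCATCA, and Yars carries their reverse complement TGATGCAA. Aars holds 2 matches, of which the first is shown. A match of letters is a description and does not show a bound site, and a window without one says nothing of the factor.

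The motif bound by STAT proteins, searched as TTCNNNGAA, which reads the same on both strands, was found in 3 members: Aars and Kars among 13 cytosolic and Nars2 among 14 mitochondrial genes. Its share was 9.55% of all genes and 8.42% of the tested ones. These stretches are shown because RUX inhibits the kinases that activate STAT proteins, again with the match in capitals.

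Aars: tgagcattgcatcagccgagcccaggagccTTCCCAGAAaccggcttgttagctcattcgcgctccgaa
Kars: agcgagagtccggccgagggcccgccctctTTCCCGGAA
Nars2: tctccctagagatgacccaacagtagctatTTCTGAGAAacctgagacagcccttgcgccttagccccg

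They lie at chr8:111033724-111033792 (plus strand), chr8:112011355-112011393 (minus strand) and chr7:96951350-96951418 (plus strand). The Aars stretch overlaps the one shown for the ATF4 response element. The E-box CACGTG was found in 4 of 13 cytosolic genes (Aars, Farsb, Iars and Tars) and 1 of 14 mitochondrial genes (Ears2), against 8.09% of all genes and 11.7% of the tested ones. The ETS motif CCGGAAG occurred in 5 of 13 and 4 of 14, against 9.93% of all genes and 19.6% of the tested ones. The interferon response element, searched as GAAANNGAA, which can overlap a STAT match by its last letters, was found in Qars alone, against 9.76% of all genes and 8.69% of the tested ones. The half-site of NRF1, a factor of many mitochondrial protein genes, was searched as TGCGCA and was found in 4 of 13 and 3 of 14, against 8.79% and 15.6%. CCAAT was found in 7 of 13 and 6 of 14, against 41.1% and 42.7%. All were searched on both strands. The Lars2 window held none of these 7 motifs.

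Differences between RUX and untreated pools passed the test in no member of the family. Of 37 members 0 had an adjusted p under 0.05 in edgeR's quasi-likelihood test with Benjamini-Hochberg adjustment over all tested genes, where the background was 0% of 13411 genes, and both DESeq2 and limma-voom called 0 as well. With p unadjusted, 0 members were under 0.05 on the higher side, where the background was 0.85% of genes, and 1 member, Pars2, was so on the lower side, where it was 1.04%. Values of the 3 RUX pools lay entirely above the 3 untreated ones for 0 members against 2.99% of all genes, and entirely below for 1, again Pars2, against 3.25%. Outside Lars2 the log2 fold changes (RUX over untreated) ran from −0.43 to 0.17. The 95% intervals of the fold changes lay within 1.5-fold in either direction for all 20 cytosolic genes and for 13 of the 16 mitochondrial genes other than Lars2, against 56.8% of all tested genes, and within 2-fold for all of these 36 members against 80.9%. These shares do not compare genes of like level, on which interval width depends. Median levels were 168 CPM for the cytosolic, 37.4 CPM for these mitochondrial and 24.6 CPM for all tested genes.

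**Figure D2:**
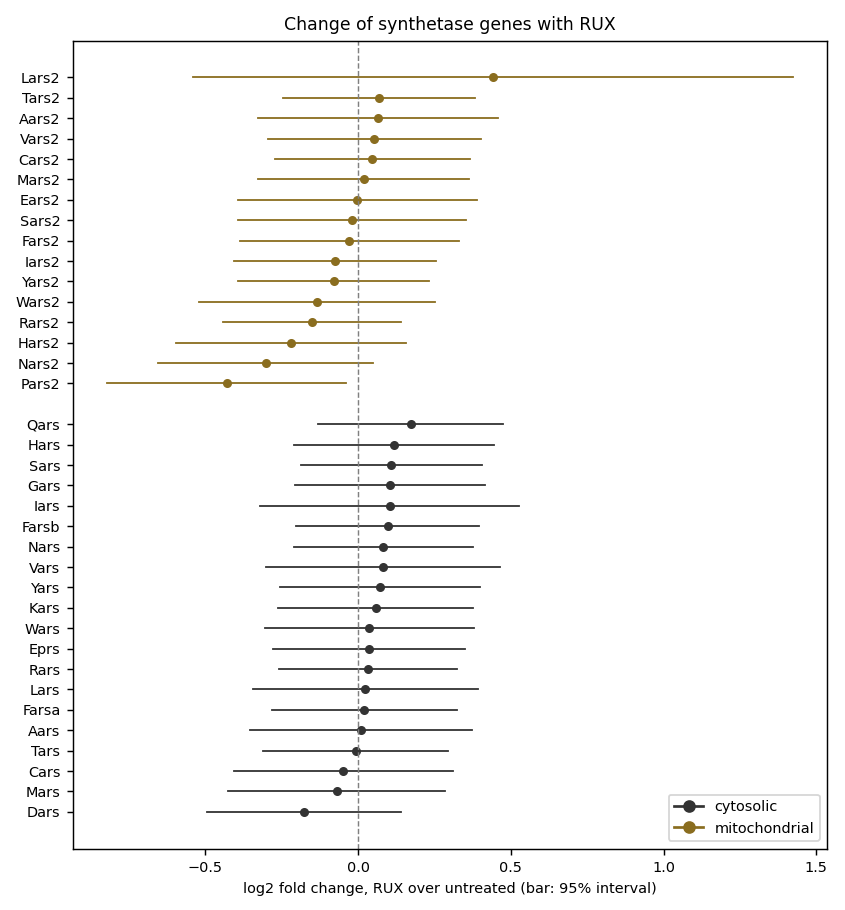
Log2 fold change of 36 synthetase genes, RUX over untreated, with its 95% interval as a bar, cytosolic genes in black and mitochondrial genes in brown. The interval of Pars2 lies below 0 and the others shown span 0, with Lars2 the widest at −0.54 to 1.42.

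Cytosolic genes had slightly positive fold changes as a group. Values were positive for 16 of the 20 and negative for 4, and the median log2 fold change was 0.05, against 6600 positive values and a median of −0.004 over all 13411 genes. This count turned with a single pool: without RUX pool 6 only 5 of 20 were positive and the median was −0.06, and without RUX pool 4 there were 19. Without untreated pool 1 there were 11 and the median was 0.01.

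Dars, highest of the cytosolic genes (chromosome 1, 128363707 to 128417416 in mm10), measured 572, 439.8 and 491 CPM without RUX (pools 1, 2, 3) and 436, 432 and 460.1 CPM with it (pools 4, 5, 6). RUX values lay within or under the untreated range, untreated pool 1 was the highest of the 6, and the log2 fold change was −0.18 ± 0.15 (SE). Nars measured 302, 341 and 327 CPM without and 328, 349.95 and 349 CPM with RUX, and was among the steadiest genes of the table. Its pooled SD within groups, in log2(CPM + 1), was larger than that of only 2.99% of tested genes. The log2 fold change was 0.08 ± 0.14 (SE) with overlapping groups.

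Gars and Kars serve both compartments, and neither differed between the groups beyond its spread. Gars (chromosome 6, 55038001 to 55079504) measured 236, 255 and 237 CPM without and 232, 253 and 297 CPM with RUX, with RUX pool 6 the highest and the other 5 pools close together. Kars (chromosome 8, 111993439 to 112011354) measured 241, 235 and 288 CPM without and 247, 251 and 296 CPM with RUX, with untreated pool 3 and RUX pool 6 the highest. Log2 fold changes were 0.10 ± 0.14 (SE) and 0.06 ± 0.15 (SE), and leaving both out moved the cytosolic median from 0.05 to 0.04.

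The cytosolic genes of lowest level did not separate either. Qars had the largest positive fold change of the 20: 76.1, 89.1 and 89.3 CPM without RUX (pools 1, 2, 3) and 100.5, 86.9 and 99.2 CPM with it (pools 4, 5, 6). RUX pool 5 fell inside the untreated range, so the groups overlapped, and the log2 fold change was 0.17 ± 0.14 (SE), with an edgeR adjusted p of 1.00. Aars (chromosome 8, 111033842 to 111055569) measured 105, 116 and 120.1 CPM without and 90.3, 111 and 143 CPM with RUX, where RUX pools 4 and 6 were the lowest and the highest of the 6. Cars measured 53.5, 56.1 and 64.7 CPM without and 45.7, 55.05 and 67.7 CPM with RUX, again with RUX pool 4 lowest and RUX pool 6 highest. Their log2 fold changes were 0.01 and −0.05.

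Wars and Eprs are tied to interferon-gamma, whose receptor signals through JAK1 and JAK2. Eprs takes part in the complex that holds back translation of inflammatory messages after interferon-gamma. Wars (chromosome 12, 108860030 to 108894174) measured 93.9, 112 and 109 CPM without RUX (pools 1, 2, 3) and 87.7, 109 and 126 CPM with it (pools 4, 5, 6). RUX pools were both the lowest and the highest, and the log2 fold change was 0.04 ± 0.16 (SE), with a 95% interval of −0.31 to 0.38. Eprs (chromosome 1, 185363095 to 185428355) measured 311, 348 and 337 CPM without and 319.6, 314 and 388 CPM with RUX, with RUX pool 6 the highest, and its log2 fold change was 0.04 ± 0.15 (SE). Irf1, an interferon-gamma target gene, had a log2 fold change of −0.01. Over the 13 tested genes of the list that joins interferon-gamma targets with components of that complex, Syncrip, Rpl13a and Gapdh, 6 values were positive and 7 negative, with a median of −0.01, and 0 passed the test. Ido1 and Cxcl9 had at most 2 and 12 read pairs in any pool and were not tested.

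The remaining cytosolic genes can be read in groups. Of the 8 synthetases that are known to sit in the multisynthetase complex (Eprs, Mars, Qars, Rars, Kars, Iars, Lars and Dars), 6 were above 0 and 2 below, and their median log2 fold change was 0.03. Among the 12 outside the complex 10 were above 0 and 2 below, and the median was 0.08. Largest after Qars were Hars (histidine) at 0.12 and Sars (serine) at 0.11. Iars (isoleucine) and Farsb had values of 0.10 and 0.10, and Vars (valine) and Yars (tyrosine) of 0.08 and 0.07. The others were near 0: Rars 0.03, Lars 0.02, Farsa 0.02, Tars (threonine) −0.01 and Mars (methionine) −0.07. Iars varied most within groups, from 118 to 202 CPM among the RUX pools.

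Mitochondrial genes other than Lars2 were more often on the negative side. The log2 fold change was positive in 6 of the 16 and negative in 10, and the median was −0.02. The count depended on RUX pool 4, the lowest pool for most of these genes: without it 10 of 16 were positive and the median was 0.06, and without both untreated pool 3 and RUX pool 4 there were 11 and the median was 0.11. Without RUX pool 6 only 1 was positive.

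Pars2, the mitochondrial proline enzyme gene (chromosome 4, 106651069 to 106655282), measured 21.8, 16.5 and 20.5 CPM without RUX (pools 1, 2, 3) and 12.3, 15.01 and 16.3 CPM with it (pools 4, 5, 6). All RUX values lay below all untreated ones, though untreated pool 2 exceeded RUX pool 6 by little. Group levels were 19.6 ± 2.72 CPM without RUX and 14.5 ± 2.06 CPM with it (SD, n = 3 each), and the log2 fold change was −0.43 ± 0.18 (SE), with an unadjusted p of 0.0331 and an edgeR adjusted p of 1.00. In the 15 alternative settings its log2 fold changes ran from −0.53 to −0.29, and the unadjusted p of each setting's own test from 0.0179 to 0.164. With no overlap between the groups, leaving out pools could hardly turn the sign, so the shared direction is no separate support. Pars2 is among the less abundant members, at 529 to 821 read pairs per pool.

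Nars2 (asparagine) measured 44.6, 31.8 and 37.1 CPM without and 27.9, 32.9 and 31.2 CPM with RUX. The groups overlapped at untreated pool 2 and RUX pool 5. The log2 fold change of Nars2 was the next lowest, −0.30 ± 0.16 (SE), followed by Hars2 (histidine) at −0.22 and Rars2 at −0.15. Nars2 is 1 of the 3 members with a STAT motif, and the others, Aars and Kars, had log2 fold changes of 0.01 and 0.06. In Nars2, Hars2, Rars2 and Pars2 the highest of the 6 pools was untreated pool 1, as in Mars2, whose log2 fold change was 0.02. Rars2 measured 89.1, 82.5 and 85.9 CPM without and 75.1, 73.4 and 83.4 CPM with RUX, a tight set in which RUX pool 6 exceeded untreated pool 2. The ratio of Rars2 to its cytosolic partner Rars, per kb, was the only 1 of the 14 whose groups did not overlap. Its log2 was −0.76 ± 0.09 (SD, n = 3) without RUX and −0.94 ± 0.02 (SD, n = 3) with it. As 1 of 14 ratios compared it is given with no test.

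Yars2 measured 66.5, 61.5 and 73.8 CPM without and 56.8, 64.6 and 69.5 CPM with RUX, and Iars2 measured 109, 109 and 109.6 CPM without and 86.9, 99.99 and 124 CPM with RUX. In both genes RUX pool 4 was the lowest of the 6. Iars2 was nearly the same in the 3 untreated pools and spread widely with RUX. Wars2 measured 10.6, 11.5 and 12.8 CPM without and 10.1, 10.1 and 11.6 CPM with RUX, the lowest level per kb of all members, and Ears2 measured 16.1, 22.99 and 21.9 CPM without and 17.5, 21.8 and 21.7 CPM with RUX. Their log2 fold changes were −0.13 and −0.0031, the second without a stable sign across scalings. Of the other mitochondrial genes, the values shown are −0.03 (Fars2, phenylalanine), −0.02 (Sars2), 0.02 (Mars2), 0.05 (Cars2), 0.05 (Vars2), 0.06 (Aars2) and 0.07 (Tars2).

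The balance of the compartments was read from their summed counts. Read pairs on the 16 mitochondrial genes per 100 on the 20 cytosolic genes were 19.6, 17.99 and 19.2 without RUX (pools 1, 2, 3) and 17.4, 18.3 and 17.6 with it (pools 4, 5, 6). Untreated pool 2 lay below RUX pool 5, so the groups overlapped. In bulk RNA, fewer cells of a type and less RNA per cell cannot be told apart.

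Lars2 was the most counted gene of every library. It took 1.20%, 4.63% and 1.81% of the read pairs without RUX (pools 1, 2, 3) and 5.21%, 3.41% and 1.497% with it (pools 4, 5, 6). All other mitochondrial synthetase genes together took 0.0600 to 0.0841%, so that Lars2 held 15.3 to 86.9 times as many read pairs as the other 16 combined. Both groups contained low and high pools, and the range within each was over 3-fold. Lars2 (chromosome 9, 123366940 to 123462664, plus strand) measured 11708, 45845 and 18589 CPM without RUX (pools 1, 2, 3) and 55594, 33382 and 14469 CPM with it (pools 4, 5, 6). The log2 fold change was 0.44 ± 0.46 (SE) with an edgeR adjusted p of 1.00. Its sign rested on RUX pool 4: without that pool it was −0.08, and without untreated pool 2 it was 1.20 at an unadjusted p of 0.0141 (adjusted p 0.972). The within-group SD of Lars2 was larger than that of 99.9% of tested genes.

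Rn45s, the precursor of cytosolic ribosomal RNA, ranked the 6 pools in the same order as Lars2. It took 0.193%, 0.446% and 0.274% of read pairs in the untreated pools and 1.04%, 0.358% and 0.251% in the RUX pools. RUX pool 4 was highest and untreated pool 1 lowest for both, and the ratio of Lars2 to Rn45s read pairs stayed between 5.03 and 10.4. Lars, the cytosolic leucine enzyme gene, was instead lowest in RUX pool 4, with 159, 193 and 149 CPM without and 133, 179 and 197 CPM with RUX. The part of ribosomal RNA content in the Lars2 counts was not tested. Taking Lars2 and Rn45s out of the table before scaling left 17 of 20 cytosolic and 7 of 16 other mitochondrial genes with positive values and medians of 0.06 and −0.02.

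**Figure D3:**
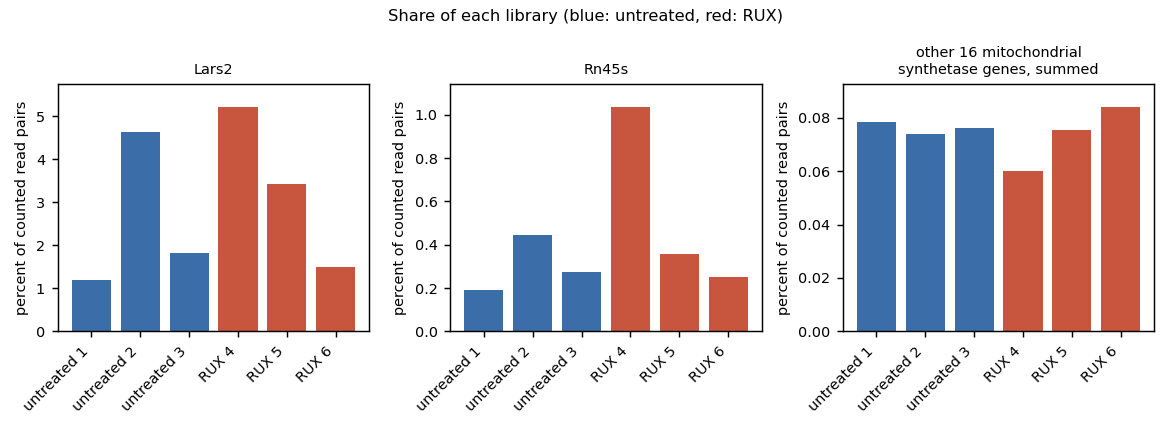
Percent of counted read pairs taken by Lars2, by Rn45s and by the other 16 mitochondrial synthetase genes together, 1 bar per pool, blue for untreated and red for RUX. Lars2 and Rn45s are highest in RUX pool 4 (5.21% and 1.04%), the pool in which the summed other genes are lowest (0.0600%).

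Pools of the same group differed from each other in a way many members shared. RUX pool 6 was the highest of the 6 pools for 16 of 20 cytosolic genes (80%), against 16.8% of all tested genes. RUX pool 4 was the lowest for 9 of 20 cytosolic genes (45%) and for 11 of 16 mitochondrial genes (68.8%), against 19.6% of all tested genes. The exceptions to the high values in RUX pool 6 were Dars, Farsa, Nars and Qars, highest in untreated pool 1, untreated pool 3, RUX pool 5 and RUX pool 4. Median deviations of the cytosolic genes from their own means, in log2(CPM + 1), were −0.10, 0.03 and 0.02 in the untreated and −0.10, −0.01 and 0.21 in the RUX pools. For the mitochondrial genes they were 0.0049, −0.01 and 0.09 in the untreated and −0.21, −0.01 and 0.09 in the RUX pools. RUX pool 6 thus had the highest cytosolic median, with untreated pool 1 and RUX pool 4 level at the low end, and RUX pool 4 had the lowest mitochondrial one. The SD of the pool medians within groups, pooled, was 0.125 for cytosolic and 0.116 for mitochondrial genes, against group differences of 0.05 and −0.02 in the fitted medians.

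**Figure D4:**
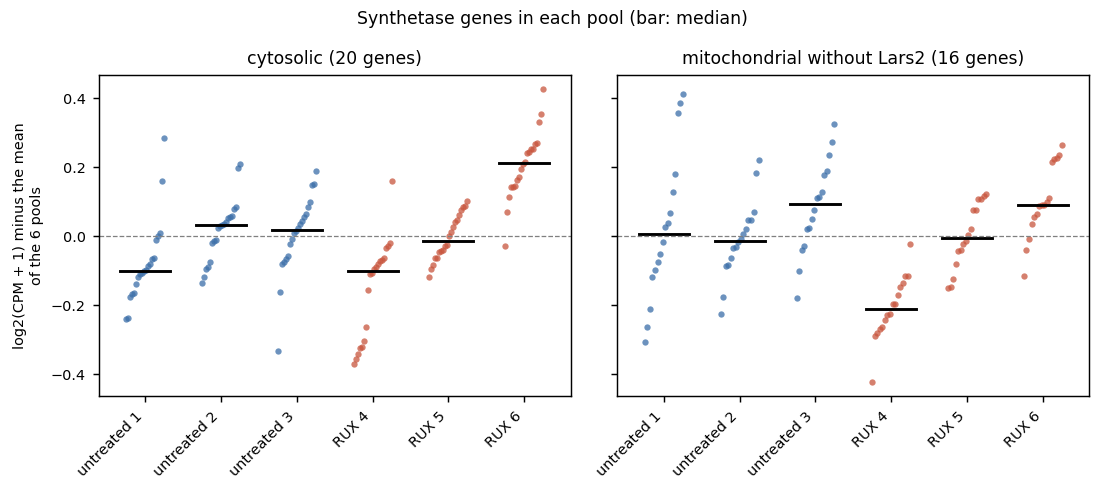
Deviation of each synthetase gene from its own mean over the 6 pools, in log2(CPM + 1), for 20 cytosolic genes (left) and 16 mitochondrial genes without Lars2 (right), with the median as a black bar. Medians range from −0.10 to 0.21 for cytosolic and from −0.21 to 0.09 for mitochondrial genes, and in both panels RUX pool 4 is at the low end, level with untreated pool 1 for cytosolic genes.

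The summed level of red cell precursor markers was lowest and highest in the same pools as that of the cytosolic genes. Of 15 erythroid markers 13 were tested, with 0 passing. Their summed level ran from 6440 to 7568 CPM without RUX and from 5958 to 8936 CPM with it, highest in RUX pool 6 and lowest in RUX pool 4. The most abundant markers weigh most in that sum. Median deviations of the 13 from their own means, in log2(CPM + 1), were also lowest in RUX pool 4 (−0.31) and highest in RUX pool 6 (0.49). Single markers did not all follow this order. Klf1, the erythroid transcription factor gene, measured 181, 241 and 207 CPM without and 189, 227 and 323 CPM with RUX, lowest in untreated pool 1. The globin genes Hba-a2 and Hbb-bt had 0 counts in every pool. The counting command named no option for multi-mapped pairs, and whether globin pairs were lost in this way was not tested. These zeros are therefore not read as absent expression. Neutrophil markers, of which 15 of 16 were tested and 0 passed, summed to between 6697 and 15067 CPM without RUX and between 8081 and 11439 CPM with it. Mpo, the most abundant of them, carried much of that sum. The values were negative for 10 of the 15, with a median log2 fold change of −0.81. Untreated pool 1 was the lowest pool for most markers of later neutrophil stages. Mmp8 was instead lowest in RUX pool 6, at 3.91 CPM against 5.75 CPM in untreated pool 1. Cxcr2 was also lowest in RUX pool 6, at 2.82 CPM against 4.39 CPM. S100a8, a calprotectin subunit gene, measured 54.5, 609 and 739 CPM without and 497, 254 and 111 CPM with RUX, and the granule protein genes Ngp and Ltf were also lowest in untreated pool 1, at 33.5 and 8.93 CPM against at least 82.5 and 28.9 CPM in the others. Untreated pool 1 was highest of the 6 for 5 of 16 mitochondrial genes (31.2%), against 19.9% of all tested genes. These were Pars2, Nars2, Hars2, Rars2 and Mars2. Without that pool 11 cytosolic genes were positive. Stem cell markers (12 of 12 tested, 0 passing) summed to between 238 and 343 CPM without RUX and between 345 and 364 CPM with it, and megakaryocyte markers (8 of 9 tested, 0 passing) to between 165 and 180.3 CPM and between 196 and 215 CPM. Both of these sums were higher in every RUX pool than in every untreated one. Lymphoid markers (17 of 18 tested, 0 passing) summed to between 1167 and 1262 CPM without RUX and between 905 and 1244 CPM with it. The part of any of these cell types in the synthetase values was not tested.

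The 5 genes with the ATF4 response element shown above, Aars, Gars, Iars, Tars and Yars, had log2 fold changes of 0.01, 0.10, 0.10, −0.01 and 0.07. Each was highest in RUX pool 6, as were 11 of the other 15 cytosolic genes. Iars, for example, measured 151, 172 and 119 CPM without and 118, 155 and 202 CPM with RUX, and Tars measured 133, 140.2 and 127 CPM without and 119, 130.4 and 149 CPM with RUX. A list joining the kinase that senses uncharged tRNA, its regulators, Atf4 and genes ATF4 is known to induce gave 0 calls. Of its 34 genes 33 were tested, of which 22 were above 0 and 11 below, at a median log2 fold change of 0.04. Atf4 itself measured 119.6, 128 and 168 CPM without and 158, 128 and 131 CPM with RUX, and Eif2ak4, the gene of the sensor kinase, had a log2 fold change of −0.0029. Asns, the asparagine synthetase gene, measured 207, 249.8 and 209 CPM without and 202, 237 and 340.4 CPM with RUX, with RUX pool 6 the highest as in the cytosolic synthetases. Cebpg, which encodes a partner of ATF4, was 1 gene of the 33 without overlap between groups, where the background on the higher side was 2.99% of genes. It measured 78.8, 74.2 and 64.3 CPM without and 88.6, 86.6 and 80.4 CPM with RUX. Its log2 fold change was 0.23 ± 0.14 (SE). Ddit3 shares 272 bases of exon with Mars on the opposite strand, and with the counter's default such pairs, falling on both genes, are not counted.

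The position of the genes set a few limits on the counts. The recorded counting command sets no strand option, and 4 members share exon bases with a gene on the opposite strand: Farsb with Sgpp2 (265 bases, 10.4% of its length), Mars with Ddit3 (9.18%), Yars with C77080 (4.18%) and Iars2 with Rab3gap2 (2.4%). Divergent neighbours within 1000 bases of the start were present for 5 cytosolic and 6 mitochondrial genes. Hars and Hars2 form such a pair themselves, with annotated starts 4 bases apart on chromosome 18. Hars measured 187, 229 and 223 CPM without and 216, 211 and 266 CPM with RUX, and Hars2 measured 62.7, 39.9 and 50.7 CPM without and 38.9, 46.1 and 46.6 CPM with RUX. Untreated pool 1 was the lowest of the 6 pools for Hars and the highest for Hars2. Kars starts 5 bases from Terf2ip, Rars2 16 bases from Orc3, and Sars2 187 bases from Mrps12, a gene of the mitochondrial ribosome.

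The other genes of tRNA charging gave 0 calls. The scaffold genes of the multisynthetase complex, Aimp1, Aimp2 and Eef1e1, had log2 fold changes of 0.09, 0.01 and −0.10. Tarsl2, a threonyl-tRNA synthetase-like gene outside the symbol rule, measured 41.1, 51.1 and 44.98 CPM without and 36.5, 45.3 and 64.6 CPM with RUX, with RUX pool 6 the highest and RUX pool 4 the lowest. Aarsd1, which removes serine from alanine tRNA, had a value of 0.14. All 6 genes of the proofreading and synthetase-like list were tested, with 2 positive and 4 negative values. The amidotransferase genes Qrsl1, Gatb and Gatc, which complete the glutamine tRNA begun by Ears2, stood at −0.05, −0.05 and −0.01, and Mtfmt, which formylates the mitochondrial initiator, at 0.02.

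Downstream, the 6 cytosolic elongation factor genes had 5 positive values and a median of 0.11, with Eef2 at 0.30. The 11 mitochondrial translation factor genes had 7 positive values and a median of 0.04, with Tufm, the elongation factor that delivers charged tRNA, at 0.20. Mtrf1l, a mitochondrial release factor gene, was 1 of these 11 without overlap, on the higher side against 2.99% of all genes, at 16.6, 14.00 and 16.6 CPM without and 19.7, 19.3 and 16.7 CPM with RUX. The lowest RUX and highest untreated values were nearly equal. Mitochondrial tRNA processing had the most members without overlap on the lower side, 3 of 12, against 3.25% of all genes. Trit1, which modifies the base beside the anticodon, measured 26.4, 22.5 and 27.2 CPM without and 21.7, 19.8 and 18.8 CPM with RUX. Its log2 fold change was −0.33 ± 0.16 (SE) at an unadjusted p of 0.0529. Trmt10c, a subunit of the enzyme that frees the 5′ end of mitochondrial tRNA, and Nsun3, which methylates mitochondrial methionine tRNA, had values of −0.22 and −0.30. For Trmt10c, untreated pool 2 and RUX pool 5 were nearly equal, at 79.58 and 79.55 CPM. Nsun3 was as close, at 11.04 CPM in untreated pool 3 and 11.03 CPM in RUX pool 5. The edgeR adjusted p was 1.00 for Trit1, Trmt10c and Nsun3. Myc, which drives growth genes, was 1 of 13 in the proliferation and MYC list without overlap, again against 2.99% of all genes, at 404, 392 and 353 CPM without and 424, 451 and 437 CPM with RUX. That list had 10 of 13 values above 0 and a median of 0.05, with 0 passing. Of the 7 selenocysteine tRNA genes, whose pathway starts from a tRNA that carries serine, charged by Sars, 6 were negative with a median of −0.10 and 0 passed.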

How the data were processed

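RNA of sorted Lin-CD117+ cells was made into libraries with the SMART-Seq mRNA LP kit, per the labels' protocols. The authors deposited 1 table of read-pair counts per gene, not normalized: reads were aligned with STAR to mm10 per the submitters' processing notes and counted over exons with featureCounts 2.0.3 per the file headers. The command in the header names no option for strand, multi-mapped pairs or pairs on several genes. The deposited table also holds summed exon lengths. Pools are of different mice per the labels, and p-values measure their spread.

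All 24421 genes entered edgeR 4.0.16 (R 4.3.3): filterByExpr left 13411, TMM scaled them, and the two-sided quasi-likelihood test had treatment as its only term, with Benjamini-Hochberg adjustment at 0.05. The fit was tested on simulated data. CPM are relative to the scaled library, SEs were derived from the log2 fold change and its F statistic, and coordinates span the annotated exons. Members, lists, rules and alternatives were chosen with earlier results of these data known. Values in each pool were due for Lars2, members with an unadjusted p under 0.05 or no overlap, the 3 highest and 3 lowest per kb in each compartment, Gars, Kars, Wars and Eprs, and up to 3 genes of each other list by the same criteria. Others shown by pool, such as Iars, Tars, Lars, Hars, Nars2, Atf4, Asns, Klf1 and S100a8, were chosen after their values were seen. Alternatives were other scalings, filters, robust fitting, DESeq2 1.42.0, limma-voom (limma 3.58.1), removal of Lars2 and Rn45s, each pool left out, and untreated pool 3 with RUX pool 4 left out. The values of 1 mitochondrial member and of a few marker genes are not reported here by name, though they enter the counts and medians.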

Additional observations from a re-analysis of the deposited data

How the results depend on the processing

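No paired analysis was possible because the pool numbers are not shared between the groups. In all 15 alternatives 0 synthetase genes passed the test, although with no low-count filter 14 other genes of the table did. Other scalings, filters and tests kept the cytosolic median log2 fold change between 0.04 and 0.06 and the mitochondrial median without Lars2 at −0.02. With 1 pool left out, the medians ran from −0.06 to 0.14 and from −0.09 to 0.06, and positive values numbered 5 to 19 of 20 cytosolic and 1 to 10 of 16 mitochondrial genes. With both untreated pool 3 and RUX pool 4 left out, the medians were 0.16 and 0.11, with 19 and 11 positive genes. Lars2 ran from −0.0807 to 1.20 with 1 pool left out and was −0.26 with those 2 pools left out. Its unadjusted p was 0.00468 with no low-count filter. With the same 2 pools left out, Cars, Yars2, Iars2 and Ears2 turned to 0.17, 0.0708, 0.0416 and 0.15. Ears2, at −0.003 as reported, was 0.00636 with DESeq2 size factors, 0.00146 with upper-quartile scaling, 0.00566 with no filter, 0.00621 in DESeq2 and 0.00576 without Lars2 and Rn45s in the table. Aars was −0.0133 in limma-voom. With 1 pool left out, values ran from −0.18 to 0.16 for Aars, −0.21 to 0.0874 for Cars, −0.14 to 0.10 for Ears2, −0.15 to 0.0026 for Yars2 and −0.23 to 0.0431 for Iars2. They ran from −0.0923 to 0.17 for Wars, −0.0691 to 0.0914 for Eprs, −0.0306 to 0.15 for Kars and −0.000544 to 0.19 for Gars. The cause of these changes was not tested. The least counted member, Wars2, had 298 to 583 read pairs per pool and an SE of 0.18.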
